A study of Mus musculus with 9 samples.

Results

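A set of 9 enzymes of serine synthesis and one-carbon metabolism were followed on 9 Illumina beadchip arrays of mouse embryonic stem (ES) cell RNA. The 9 genes were Phgdh, Psat1, Psph, Shmt1, Shmt2, Mthfd1, Mthfd2, Tyms and Gldc, among 17913 genes on the array type used for the Wdr5 comparison and 32085 on the type used for the Oct4 comparison. Every probe whose gene symbol was one of the 9 was taken, which gave 15 of 25697 probes on the first type and 16 of 46643 on the second. The set was chosen by results of the same arrays that were already known, so the values of its genes below are given as a description. Where an enzyme is said to be called, this only places it in a fit over all genes, and no p-value is given for it.

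The first comparison set 3 arrays of a Wdr5 knockdown against 2 arrays of a luciferase control. Both came from Aniv15 ES cells, which express the reverse tetracycline transactivator (rtTA). The knockdown was a rescue clone, Wdr5R4, grown without doxycycline, in which an shRNA lowers Wdr5, a subunit shared by histone H3 lysine 4 methyltransferase complexes. The control was labelled LucR with doxycycline. Doxycycline and knockdown thus differ together and cannot be told apart, and the labels name 1 knockdown clone. The growth text lists doxycycline for every sample, so its absence from the knockdown rests on the sample titles and the transfection label. The second comparison set 2 arrays of cells expressing Oct4 shRNA against 2 of cells expressing GFP shRNA. Oct4, gene symbol Pou5f1, is a transcription factor required for pluripotency. These cells were CCE or E14T, and which of these lines each sample came from is not labelled. All cells were kept on primary mouse embryonic fibroblasts, with LIF. The labels number the samples within a group but do not say that they were separate cultures, so the p-values given below measure the spread between these samples only.

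Serine is made from the glycolytic intermediate 3-phosphoglycerate in successive steps by Phgdh (oxidation), Psat1 (transamination) and Psph (dephosphorylation). The serine hydroxymethyltransferases Shmt1, in the cytosol, and Shmt2, in mitochondria, then split serine into glycine and a one-carbon unit carried on tetrahydrofolate. Mthfd1 (cytosol) and Mthfd2 (mitochondria) interconvert the folate-bound units, Tyms spends one to make thymidylate for DNA, and the glycine decarboxylase Gldc releases another from glycine. Mouse ES cells are known to draw one-carbon units from threonine through Tdh and glycine cleavage.

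On the Wdr5 knockdown arrays Phgdh, Psat1, Shmt1, Mthfd2, Tyms and Gldc were lower than on the luciferase arrays. After the normalization used here Phgdh was lower by the most, while Shmt2 and Mthfd1 were close to their controls. In the authors' deposited table Psat1 was lower by more than Phgdh. On the Oct4 shRNA arrays Shmt1, Shmt2, Mthfd1, Mthfd2 and Tyms were lower than on the GFP shRNA arrays, and Gldc was higher after normalization but did not pass the threshold. Phgdh was above background only in the Wdr5 set, and Psph on no array of either set. A gene was called where the limma fit over all genes gave a Benjamini-Hochberg adjusted p below 0.05. By that rule 6 of the 8 measured enzymes were called lower and 0 higher in the Wdr5 comparison, where 30.5% of all 10119 tested genes were called lower and 38.2% higher. In the Oct4 comparison 5 of 7 measured enzymes were called lower and 0 higher, where 18.1% of 9276 genes were called lower and 24.3% higher. Without replicate 1 of the Oct4 shRNA arrays 2 enzymes were called lower, Shmt1 and Tyms, and without replicate 2 there were 3, with Mthfd1 added. The median log2 fold change of the measured enzymes was -1.16 in the Wdr5 comparison, beside 0.10 for all genes, and -0.94 in the Oct4 comparison, beside -0.02 for all genes. The enzymes were picked with both contrasts known, so nothing is read from these counts or medians.

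The arrays of the Oct4 set differed widely in brightness. Mean intensities were 110 and 111 on the Oct4 shRNA arrays and 344 and 278 on the GFP shRNA arrays. In the Wdr5 set they were 429, 400 and 375 on the knockdown arrays and 448 and 518 on the luciferase arrays. Between 12156 and 13104 probes per array were detected in the Wdr5 set and between 9020 and 11804 in the Oct4 set. Fold changes below are of log2 signals after quantile normalization, which gives all arrays of a set the same distribution, so each is relative to the other genes. Deposited intensities, printed beside them, are not normalized between arrays.

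The knocked-down genes were checked on the same arrays. Wdr5 had a log2 fold change of -0.96 ± 0.07 SE in its knockdown (limma adjusted p = 0.000121), and Pou5f1 one of -2.28 ± 0.15 SE with Oct4 shRNA (limma adjusted p = 0.000685). Each was also called lower in the other comparison. Wdr5 gave -0.81 ± 0.15 SE with Oct4 shRNA (limma adjusted p = 0.0108). Pou5f1 gave -0.96 ± 0.18 SE in the Wdr5 knockdown (limma adjusted p = 0.00448). These values are from the brightest probes. A second Pou5f1 probe gave -2.03 ± 0.15 SE in the Wdr5 knockdown and -1.88 ± 0.16 SE with Oct4 shRNA. The labelled cell type was checked against 10 ES cell markers. All 10 were called lower in the Wdr5 knockdown, with summed normalized signals of 26562 to 27172 on its arrays and 49438 to 52429 on the luciferase arrays. With Oct4 shRNA, 6 of 7 tested ES markers were called lower, with sums of 4360 to 5002 on the Oct4 shRNA arrays and 15083 to 19455 on the GFP shRNA arrays. ES markers were thus mostly called lower in both knockdowns.

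Markers of other cells also differed between the groups. Of 15 feeder fibroblast markers, 11 were tested in the Wdr5 set, with 9 called higher and 2 lower. Their summed signal was 13062 to 13285 on the knockdown arrays and 7098 to 7199 on the luciferase arrays. Col1a2, Fn1, Lum and Postn were not above the filter there. In the Oct4 set 5 of the 15 were tested and 3 were called higher, with sums of 13718 to 14728 on the Oct4 shRNA arrays and 2661 to 3340 on the GFP shRNA arrays, while Col1a1, Col1a2, Col3a1 and Dcn were among the 10 not above the filter. Primitive endoderm markers gave 5 called higher of 6 tested in the Wdr5 set (10150 to 10494 on the knockdown arrays, 1566 to 1608 on the luciferase arrays) and 7 of 7 in the Oct4 set (29585 to 33721 with Oct4 shRNA, 7230 to 8206 with GFP shRNA). Trophectoderm markers gave 4 higher and 2 lower of 7 tested in the Wdr5 set (23136 to 23876 on the knockdown arrays, 19594 to 19660 on the luciferase arrays). In the Oct4 set 5 of 6 were called higher and 1 lower (29914 to 34598 with Oct4 shRNA, 1545 to 1708 with GFP shRNA). These shifts run alongside every enzyme value below, and their part in those values was not tested. In RNA from whole cultures, fewer cells of a type and less RNA per cell cannot be told apart.

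The promoters of the 4 enzymes that stand for the steps described below are shown. Known regulators of serine synthesis, among them Atf4, act on some of these genes in other settings, and binding was not measured here. Each is the 250 bases before the start site in RefSeq, build GRCm38.p6, written 5′ to 3′ on the gene's strand. Phgdh lies at chr3:98339970-98340219, Psat1 (the farther upstream of its 2 listed starts) at chr19:15925060-15925309, Mthfd2 at chr6:83317605-83317854 and Tyms at chr5:30073626-30073875, all on the minus strand. Capitals mark CCAAT, also read as ATTGG on the other strand, and in Tyms the E-box CACGTG.
Phgdh: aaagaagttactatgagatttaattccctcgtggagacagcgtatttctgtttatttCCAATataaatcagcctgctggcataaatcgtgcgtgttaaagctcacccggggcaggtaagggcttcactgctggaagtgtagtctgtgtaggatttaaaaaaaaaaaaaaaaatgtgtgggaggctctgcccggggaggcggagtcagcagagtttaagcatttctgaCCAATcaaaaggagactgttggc
Psat1: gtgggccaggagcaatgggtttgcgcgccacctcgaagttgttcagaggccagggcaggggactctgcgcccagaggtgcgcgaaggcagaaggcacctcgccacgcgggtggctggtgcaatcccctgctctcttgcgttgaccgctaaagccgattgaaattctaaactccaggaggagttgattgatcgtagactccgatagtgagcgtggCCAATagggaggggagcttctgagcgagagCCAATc
Mthfd2: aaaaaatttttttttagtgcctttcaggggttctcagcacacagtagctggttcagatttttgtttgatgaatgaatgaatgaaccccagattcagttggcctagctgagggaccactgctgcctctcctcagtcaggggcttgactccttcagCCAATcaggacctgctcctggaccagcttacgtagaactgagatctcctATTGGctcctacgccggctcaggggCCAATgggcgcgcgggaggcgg
Tyms: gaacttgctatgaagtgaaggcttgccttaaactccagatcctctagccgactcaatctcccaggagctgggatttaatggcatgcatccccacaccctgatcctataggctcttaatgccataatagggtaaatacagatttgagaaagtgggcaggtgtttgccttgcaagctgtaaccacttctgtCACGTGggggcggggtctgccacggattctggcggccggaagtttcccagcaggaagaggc

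Promoter windows from 250 bases before to 50 after the start were found for all 9 enzymes and searched on both strands for 3 listed motifs. The C/EBP-ATF composite site TGATGNAAN, a form bound by Atf4 dimers, was in 0 of the 9, beside 3.95% of 32851 promoters of that length. The cAMP response element TGACGTCA was in 0 of the 9 (1.79% of promoters). The E-box CACGTG, which Myc proteins bind, was in the Tyms window only, with its first base at -61 (7.15% of promoters). CCAAT was added after the sequences were seen, and 37.4% of promoters hold it. It was in the windows of Phgdh, Psat1, Psph, Shmt1, Mthfd1, Mthfd2 and Gldc, and not in those of Shmt2 and Tyms. For Psat1 this is the window of the farther upstream start, and the window of its other listed start held 0 matches. In Phgdh the first bases of its 2 matches were at -193 and -23. In Mthfd2 the 3 matches began at -96, -47 and -22, and in Psat1 the 3 began at -36, -6 and 23 (the last one past the start, outside the printed stretch). A match of letters is a description and does not show that a factor binds.

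**Figure D1:**
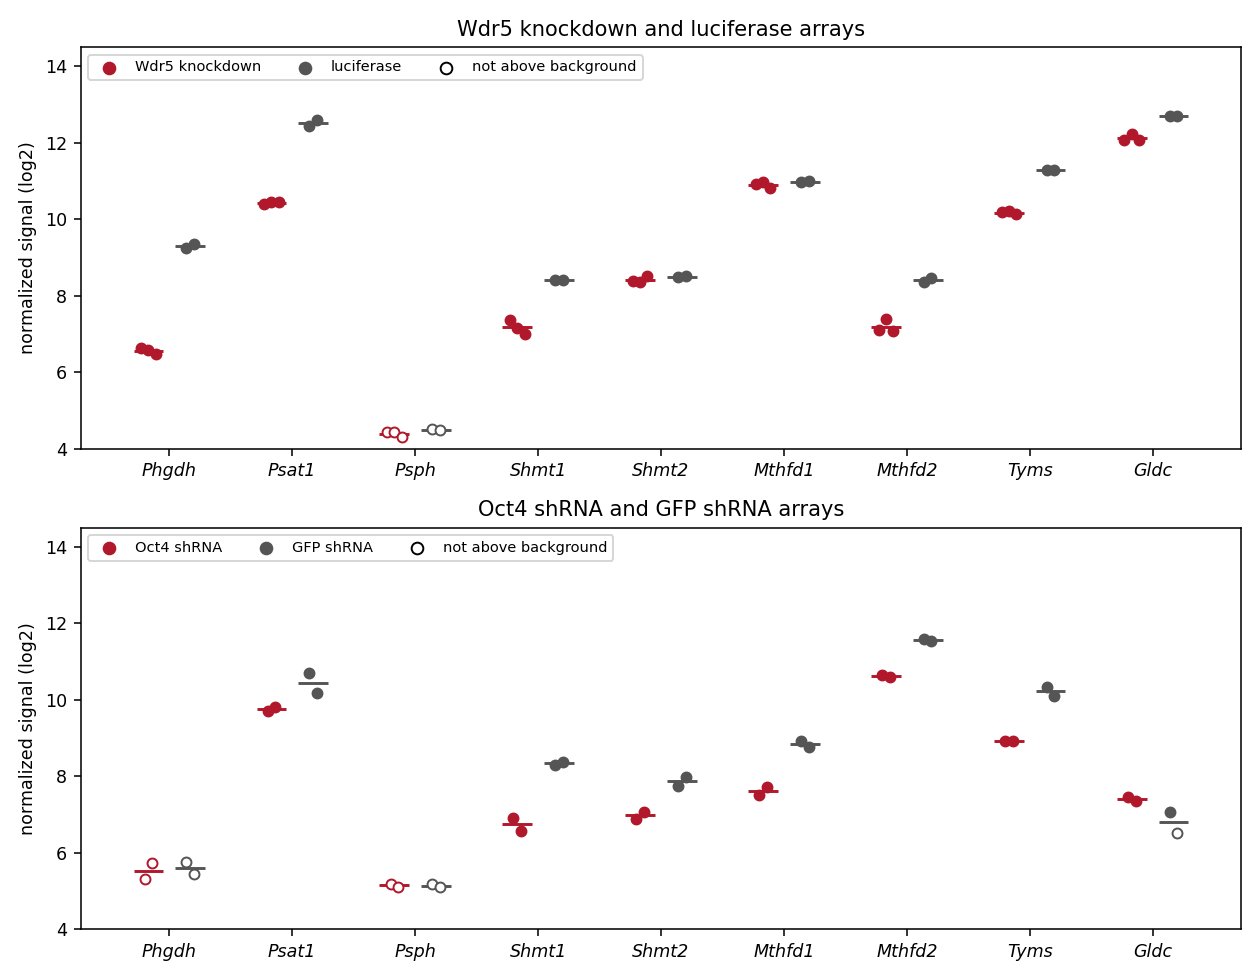
Normalized log2 signal of the brightest probe of each of the 9 enzymes on every array, with the Wdr5 knockdown and luciferase arrays in the upper panel and the Oct4 shRNA and GFP shRNA arrays in the lower one. Points are arrays, bars are group means and open points are arrays on which the probe was not above background; Phgdh and Psat1 stand farthest below their controls in the upper panel, and levels of different genes are not comparable because each comes from its own probe.

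Phgdh, which commits 3-phosphoglycerate to serine, had intensities of 75.9, 66.5 and 57.6 on the Wdr5 knockdown arrays, against 606.5 and 765.4 on the luciferase arrays. All 3 knockdown arrays lay far below both controls, and the probe was above background on all 5. Its mean log2 signal was 6.56 ± 0.08 in the knockdown (SD, n = 3) and 9.32 ± 0.07 in the luciferase control (SD, n = 2), a log2 fold change of -2.76 ± 0.08 SE. This puts the knockdown at 14.8% of the control signal, 6.77-fold lower. The authors' deposited table gives -1.33 for the same probe on the log2 scale. On the Oct4 set Phgdh read 0.4 and 14.9 with Oct4 shRNA and 45.3 and 3.9 with GFP shRNA. No array of that set had it above background, so no fold is given. The probe there is a different one, on a different array type, so the absence of signal does not say that Phgdh RNA differed between the cell lines.

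Psat1, the aminotransferase of the next step, had intensities of 1388.8, 1290.9 and 1226.9 in the Wdr5 knockdown and 5528.0 and 7145.5 in the luciferase control. The groups did not overlap. Its mean log2 signal was 10.43 ± 0.02 in the knockdown (SD, n = 3) and 12.53 ± 0.12 in the control (SD, n = 2), 4.28-fold lower (log2 fold change -2.10 ± 0.08 SE), and the authors' deposited table gives -2.06. In the Oct4 set the brighter of its 2 probes read 418.3 and 440.1 with Oct4 shRNA and 2783.5 and 1479.3 with GFP shRNA. Both Oct4 shRNA arrays were below both controls, but the controls differed from each other. The means were 9.76 ± 0.07 with Oct4 shRNA and 10.44 ± 0.37 with GFP shRNA (SD, n = 2 each), and the log2 fold change of -0.68 ± 0.21 SE did not pass the threshold. It passed under 8 of the 13 settings tried. The second Psat1 probe read 138.6 and 158.4 with Oct4 shRNA and 993.2 and 751.1 with GFP shRNA, a log2 fold change of -1.00 ± 0.15 SE.

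Psph, the phosphatase that finishes serine synthesis, was at or below background throughout. Its intensities were -6.2, -5.8 and -14.7 in the Wdr5 knockdown and -2.4 and -3.5 in the luciferase control, and -7.7 and -12.5 with Oct4 shRNA and -20.7 and -41.4 with GFP shRNA. One probe stood for it on each array type, so the third step of the route has no measurement here.

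Shmt1, the cytosolic serine hydroxymethyltransferase, had intensities of 140.7, 109.4 and 90.1 in the Wdr5 knockdown and 339.6 and 400.7 in the luciferase control. Its mean log2 signal was 7.17 ± 0.18 in the knockdown (SD, n = 3) and 8.41 ± 0.0054 in the control (SD, n = 2), 2.37-fold lower (log2 fold change -1.24 ± 0.12 SE). The authors' deposited table gives -0.56. With Oct4 shRNA the brighter probe read 56.6 and 40.3, against 514.2 and 418.9 with GFP shRNA. The means were 6.75 ± 0.23 with Oct4 shRNA and 8.34 ± 0.07 with GFP shRNA (SD, n = 2 each), 3.02-fold lower (log2 fold change -1.59 ± 0.17 SE). The second Shmt1 probe was not well above background on either Oct4 shRNA array, at 5.2 and 0.8 beside 310.9 and 230.8 with GFP shRNA, at least 2.37-fold lower. That probe passed the detection filter only through the GFP shRNA arrays, so its direction adds nothing to that of the brighter one.

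Shmt2, the mitochondrial form that supplies most one-carbon units in many dividing cells, read 312.2, 277.1 and 297.6 in the Wdr5 knockdown and 358.2 and 425.1 in the luciferase control on its brighter probe. After normalization the groups overlapped, at 8.42 ± 0.08 in the knockdown (SD, n = 3) and 8.50 ± 0.01 in the control (SD, n = 2), and the log2 fold change of -0.08 ± 0.08 SE was not called. The other Shmt2 probe read 2.7, -0.8 and 9.1 in the knockdown, not well above background on any of these arrays. Its readings in the control were 64.7 and 89.8, which puts the knockdown at least 2.18-fold lower. That probe passed the detection filter only through the luciferase arrays, so its direction adds nothing to that of the brighter one. The files hold no probe sequences, so which transcript each probe reads was not analysed here. With Oct4 shRNA the brighter Shmt2 probe read 55.7 and 59.7, against 341.7 and 316.0 with GFP shRNA, and its log2 fold change was -0.90 ± 0.16 SE (6.98 ± 0.12 with Oct4 shRNA, 7.87 ± 0.17 with GFP shRNA, SD, n = 2 each). That is 1.86-fold lower, and the second probe did not pass the detection filter there.

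Mthfd1, the cytosolic enzyme with 3 activities on folate-bound units, read 1999.5, 1883.2 and 1589.1 in the Wdr5 knockdown and 1968.0 and 2349.9 in the luciferase control. Its mean log2 signals were 10.91 ± 0.08 in the knockdown (SD, n = 3) and 10.99 ± 0.02 in the control (SD, n = 2), and the log2 fold change of -0.08 ± 0.08 SE was not called. With Oct4 shRNA it read 90.0 and 103.0, against 813.9 and 554.8 with GFP shRNA. It was 2.35-fold lower there (log2 fold change -1.23 ± 0.16 SE, 7.63 ± 0.14 with Oct4 shRNA and 8.86 ± 0.11 with GFP shRNA, SD, n = 2 each). A second Mthfd1 probe in the Oct4 set was not above background on any array.

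Mthfd2, the mitochondrial dehydrogenase and cyclohydrolase, read 115.6, 131.2 and 96.2 in the Wdr5 knockdown and 329.9 and 413.3 in the luciferase control. The knockdown arrays lay below both controls, at 7.19 ± 0.16 (SD, n = 3) beside 8.41 ± 0.08 in the control (SD, n = 2), 2.33-fold lower (log2 fold change -1.22 ± 0.11 SE). The authors' deposited table gives -0.55. With Oct4 shRNA Mthfd2 read 790.5 and 763.7, against 5046.7 and 3986.1 with GFP shRNA. Its log2 signals within each group were close, at 10.63 ± 0.02 with Oct4 shRNA and 11.57 ± 0.03 with GFP shRNA (SD, n = 2 each), and it was 1.92-fold lower (log2 fold change -0.94 ± 0.14 SE). That call was lost without either Oct4 shRNA array.

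The cytosolic and mitochondrial forms can be set side by side by their fold changes, each from its brightest probe. In the Wdr5 comparison the log2 fold change of Shmt1 minus that of Shmt2 was -1.16, and that of Mthfd2 minus that of Mthfd1 was -1.14. The lower partner was thus the cytosolic one in the first pair and the mitochondrial one in the second. For the Oct4 shRNA arrays the same differences were -0.70 and 0.29. These differences are a description with no test. The first one rests on the brighter Shmt2 probe. The other was at least 2.18-fold lower in the Wdr5 knockdown but passed the detection filter only through the luciferase arrays.

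Tyms, thymidylate synthase, had 5 probes on the Wdr5 set. The brightest read 1174.9, 1098.3 and 977.0 in the knockdown and 2443.8 and 2871.1 in the luciferase control. Its log2 signals were 10.18 ± 0.04 in the knockdown (SD, n = 3) and 11.28 ± 0.0017 in the control (SD, n = 2), 2.15-fold lower (log2 fold change -1.11 ± 0.07 SE). The second brightest read 118.8, 129.6 and 104.6 in the knockdown and 288.1 and 304.6 in the control, and gave -0.86 ± 0.10 SE. The dim probes went another way. One read 30.5, 28.3 and 35.1 in the knockdown and 12.7 and 23.7 in the control, a log2 fold change of 0.74 ± 0.13 SE, and was detected on 1 of the 2 control arrays. Another gave 0.14 ± 0.11 SE, and the last did not pass the filter. The same array type carries a probe for the pseudogene Tyms-ps, at 1179.6, 996.2 and 978.2 in the knockdown and 1159.1 and 1447 in the control. Sequence shared between the gene and its pseudogene could reach more than 1 of these probes, so the size for Tyms is uncertain. In the Oct4 set the brightest of 4 Tyms probes read 248.4 and 240.8 with Oct4 shRNA and 2168.6 and 1428.5 with GFP shRNA. It was 2.45-fold lower (log2 fold change -1.29 ± 0.15 SE, 8.93 ± 0.01 with Oct4 shRNA and 10.22 ± 0.17 with GFP shRNA, SD, n = 2 each). The second probe gave -1.30 ± 0.17 SE, and the other 2 were not above background.

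Gldc, the decarboxylase of the glycine cleavage system, read 4335.6, 4572.6 and 3858.0 in the Wdr5 knockdown and 6558.2 and 7721.1 in the luciferase control. Its mean log2 signals were 12.13 ± 0.09 in the knockdown (SD, n = 3) and 12.70 ± 0.009 in the control (SD, n = 2), 1.49-fold lower (log2 fold change -0.57 ± 0.08 SE). A second, dimmer probe read 555.6, 479.4 and 446.1 in the knockdown and 1481.2 and 1715.8 in the control, 2.77-fold lower (log2 fold change -1.47 ± 0.07 SE). Both probes were lower, by different amounts. In the Oct4 set the single Gldc probe read 84.9 and 77.3 with Oct4 shRNA and 191.3 and 125.9 with GFP shRNA, and was detected on 1 of the 2 GFP shRNA arrays. Its intensity was lower on the Oct4 shRNA arrays, which were dimmer as a whole, while its normalized signal was higher, at 7.41 ± 0.06 with Oct4 shRNA and 6.80 ± 0.39 with GFP shRNA (SD, n = 2 each). The log2 fold change of 0.61 ± 0.22 SE was not called. It was 0.07 when the arrays were scaled to a common median.

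**Figure D2:**
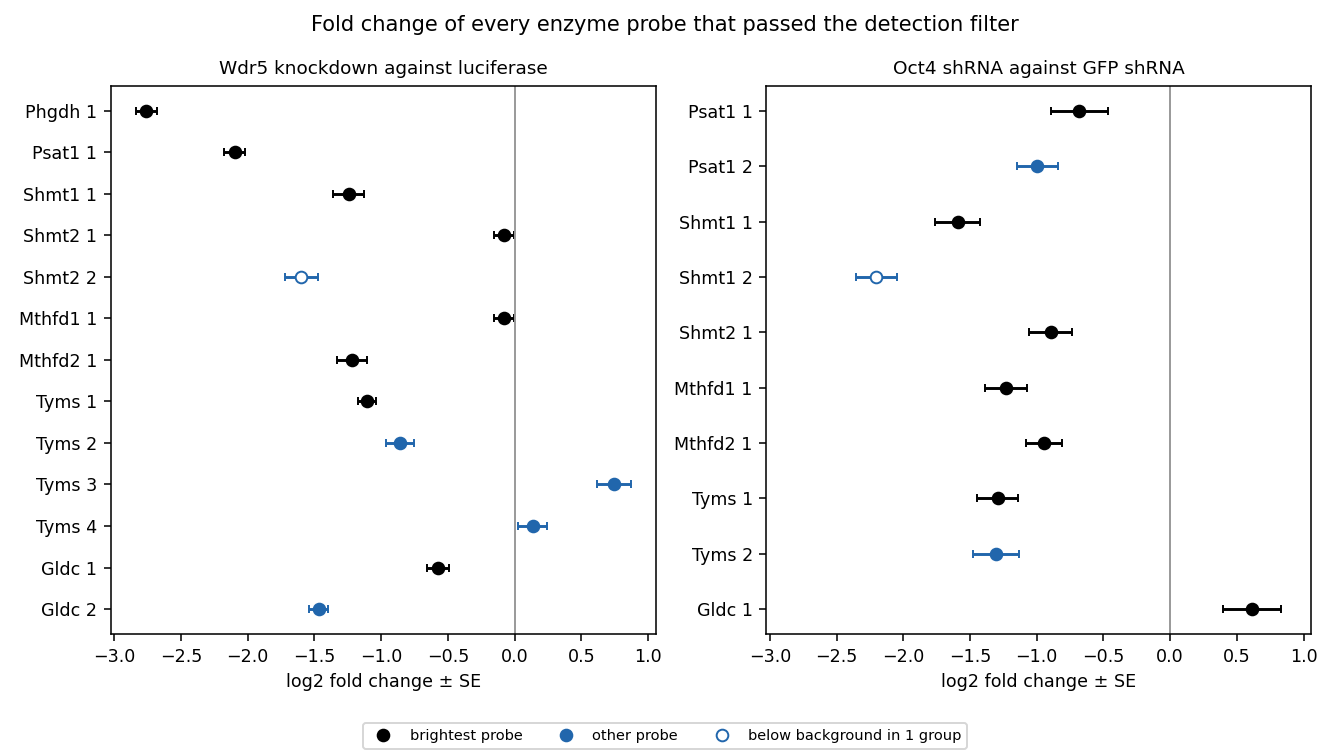
Log2 fold change with its standard error for each probe of the enzymes that passed the detection filter, 13 in the Wdr5 comparison (left) and 10 in the Oct4 comparison (right), numbered within a gene. Black points are the brightest probe of a gene, blue points the others and open points probes below background on every array of the knockdown group, for which the text gives a bound; in the left panel the probes of Shmt2, Tyms and Gldc differ from each other, and in the right panel those of Psat1, Shmt1 and Tyms lie on the same side of 0.

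The enzymes thus fell into different orders in the 2 comparisons, which share no arrays, array type or control. In the Wdr5 comparison the called enzymes ran from Phgdh (-2.76) and Psat1 (-2.10) through Shmt1 (-1.24), Mthfd2 (-1.22) and Tyms (-1.11) to Gldc (-0.57), all log2 fold changes. Neighbours among the 3 in the middle lie within the sum of their standard errors of 0.12, 0.11 and 0.07. The authors' deposited table gives another order there, with Psat1 (-2.06) past Phgdh (-1.33), then Tyms (-1.03), Gldc (-0.56), Shmt1 (-0.56) and Mthfd2 (-0.55). The second Gldc probe, at -1.47, would also place Gldc before Shmt1. In the Oct4 comparison they ran from Shmt1 (-1.59) through Tyms (-1.29), Mthfd1 (-1.23) and Mthfd2 (-0.94) to Shmt2 (-0.90), with standard errors of 0.14 to 0.17, so neighbours in that order lie within the sum of their standard errors. The authors' deposited table orders them otherwise, with log2 fold changes of -0.82 for both Tyms and Mthfd2, -0.48 for Mthfd1, -0.45 for Shmt1 and -0.23 for Shmt2. It gives -0.52 for Psat1 and 0.14 for Gldc. The controls of the Oct4 set were spread most for Psat1 and Gldc. Of 6170 genes tested in both comparisons, 21.1% had knockdown and control arrays that did not overlap in either comparison and that lay in opposite directions. Among the 7 enzymes tested in both this held for Gldc alone, 14.3%.

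Genes whose signal followed Phgdh most closely were sought by the Euclidean distance between profiles of log2 signal minus the control mean. The rule asked for all 9 arrays, and could not be applied because Phgdh was not above background in the Oct4 set. Over the 5 arrays of the Wdr5 set, the nearest of 10111 other genes were Arrdc4 (distance 0.0711), Aldoc (0.0887), Fabp3 (0.130), Acss2 (0.142) and Acss1 (0.151), which had log2 fold changes of -2.72, -2.77, -2.73, -2.80 and -2.78. For Psat1, chosen after the values were seen, the nearest of 6163 genes over all 9 arrays were C1qbp (0.301), Hnrnpa1 (0.327), Pex7 (0.355), Blvrb (0.489) and Pde6d (0.495). With 2 or 3 arrays in a group, such distances mostly order genes by the size of their fold change.

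A further 60 genes in 8 lists around the same pathway were examined, none of them among the 9 enzymes. In the Wdr5 comparison 45 were tested, of which 9 were called higher, 23 lower and 13 neither, with a median log2 fold change of -0.24. In the Oct4 comparison 41 were tested, of which 3 were called higher, 14 lower and 24 neither, with a median of -0.39. The lists were drawn up with results of these arrays known, so the counts stand beside the shares over all genes given above as a description. The called genes include Gnmt and Myc in the Wdr5 comparison and Mthfs and Slc1a5 in the Oct4 comparison. These passed the detection filter only through the group where they were higher, so their directions add nothing.

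**Figure D3:**
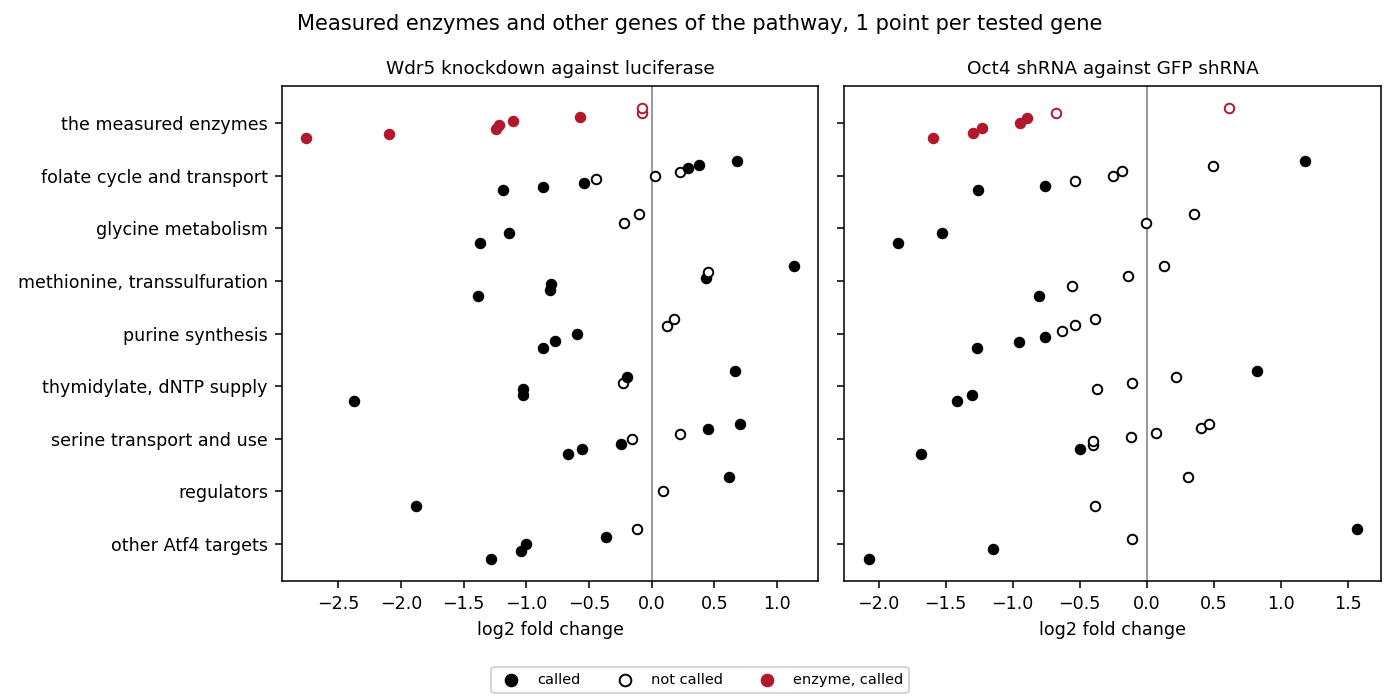
Log2 fold changes of the measured enzymes (red, top line) and of the tested genes of the 8 lists (black), 1 point a gene, in the Wdr5 comparison (left, 45 list genes) and the Oct4 comparison (right, 41 list genes). Filled points were called by limma at an adjusted p below 0.05; each list other than the regulators in the Oct4 comparison has called genes, and most lists spread to both sides of 0.

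Among the 15 genes of the folate cycle and folate transport, 9 were tested in the Wdr5 comparison, with 3 called higher and 3 lower. Slc19a1, the reduced folate carrier, had a log2 fold change of -1.19 ± 0.10 SE (limma adjusted p = 0.00015). Its intensities were 131.2, 107.0 and 95.8 in the knockdown and 347.3 and 358.6 in the control. The proton-coupled folate transporter Slc46a1 was also lower (-0.87 ± 0.16 SE, limma adjusted p = 0.00396), as was the formyltetrahydrofolate dehydrogenase Aldh1l1 (-0.54 ± 0.15 SE, limma adjusted p = 0.021, and not called without knockdown replicate 2 or luciferase replicate 1). Slc25a32, the mitochondrial folate carrier, was higher (0.68 ± 0.10 SE, limma adjusted p = 0.00176). Mthfd1l, the mitochondrial formate producer, did not pass the filter.

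With Oct4 shRNA 7 of these 15 were tested, with 1 called higher and 2 lower. Slc46a1 was higher there (1.18 ± 0.17 SE, limma adjusted p = 0.00469), while Slc19a1 was lower (-0.76 ± 0.21 SE, limma adjusted p = 0.0335). The Slc46a1 probe was detected on 1 of the 2 GFP shRNA arrays, and its call was lost on scaling to a common median and without Oct4 shRNA replicate 1. The Slc19a1 call was lost without either Oct4 shRNA array, without GFP shRNA replicate 1 with the authors' log2 values and with no filter on dim probes. Mthfs, which returns 5-formyltetrahydrofolate to the cycle, was not well above background with Oct4 shRNA and at least 1.67-fold lower. It is counted as called lower but passed the detection filter only through the GFP shRNA arrays, so its direction is not a result. Mthfd1l gave -0.54 ± 0.19 SE and was not called (limma adjusted p = 0.0747).

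Of the 7 genes of glycine metabolism, 4 were tested in each comparison, with 2 called in each, all lower. Tdh, threonine dehydrogenase, was lower in both. Its intensities were 793.2, 957.2 and 785.0 in the Wdr5 knockdown and 2021.6 and 2241.9 in the luciferase control (log2 fold change -1.14 ± 0.12 SE, limma adjusted p = 0.000417). With Oct4 shRNA they were 77.9 and 98.2, against 1391.7 and 650.5 with GFP shRNA (-1.85 ± 0.27 SE, limma adjusted p = 0.00474). Gcat, which takes the Tdh product on to glycine, was lower with Oct4 shRNA (-1.53 ± 0.19 SE, limma adjusted p = 0.00316) and did not pass the filter in the Wdr5 set. Gnmt, glycine N-methyltransferase, was not well above background in the Wdr5 knockdown and at least 1.85-fold lower. It is among the 2 counted as called there, but it passed the detection filter only through the luciferase arrays. Its direction is therefore not a result, and without either luciferase array Gnmt was not tested. The partners of Gldc in glycine cleavage were not called. Dld gave -0.22 ± 0.16 SE and Amt -0.10 ± 0.11 SE in the Wdr5 comparison, and 0.00 and 0.35 ± 0.14 SE in the Oct4 comparison. The Amt probe was detected on 1 of 3 Wdr5 knockdown, 1 of 2 luciferase and 1 of 2 GFP shRNA arrays. Its values lie near background and do not show that Amt was unchanged. Gcsh did not pass the filter in either.

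For the methionine cycle and transsulfuration, 6 of 8 genes were tested in the Wdr5 comparison, with 2 called higher and 3 lower. Cystathionine gamma-lyase, Cth, was lower (-1.39 ± 0.17 SE, limma adjusted p = 0.000718), as were cystathionine beta-synthase, Cbs (-0.81 ± 0.21 SE, limma adjusted p = 0.0148), which joins serine to homocysteine, and Mat2b (-0.80 ± 0.09 SE, limma adjusted p = 0.000542), the regulatory subunit of the enzyme that makes S-adenosylmethionine. The Cbs call was lost without either luciferase array. The catalytic subunit Mat2a was higher on its brightest probe (1.14 ± 0.07 SE, limma adjusted p = 5.41e-05), but its other probes gave 1.51, -1.10 and -0.81, and the mean over its probes was not called. Against GFP shRNA 4 were tested and only Ahcy, S-adenosylhomocysteine hydrolase, was called, lower by limma (-0.80 ± 0.17 SE, adjusted p = 0.0165), a call lost without either Oct4 shRNA array. Mat2a gave -0.56 ± 0.18 SE on its brightest probe there, which was not called, and -1.80 ± 0.17 SE and -2.43 ± 0.18 SE on its other probes. It was called under some of the other settings, the mean over its probes among them.

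Purine synthesis takes 2 formyl groups from folate. Of its 6 listed genes, 5 were tested in the Wdr5 comparison, with 3 called, all lower. Adsl was lower (-0.87 ± 0.22 SE, limma adjusted p = 0.0145, not called without either luciferase array), and so was Paics (-0.60 ± 0.12 SE, limma adjusted p = 0.00624). Gart, which uses the first formyl group, gave -0.77 ± 0.08 SE (limma adjusted p = 0.000307) on its brightest probe, while its other probe gave 0.36. When either luciferase array was left out, the other probe became the brightest one, and the value for Gart was then up to 0.38. Against GFP shRNA 6 were tested, with 3 called, all lower. Atic, which uses the second formyl group, was lower (-1.27 ± 0.14 SE, limma adjusted p = 0.00231). Ppat, the first enzyme of the route, gave -0.95 ± 0.15 SE (limma adjusted p = 0.00619) and Adsl -0.76 ± 0.22 SE (limma adjusted p = 0.0423). The calls of Ppat and Adsl were lost without either Oct4 shRNA array, and that of Adsl also with no filter on dim probes. Against luciferase, Atic in the Wdr5 knockdown gave 0.18 ± 0.07 SE on its brightest probe and was not called, while its other probes gave -1.08 ± 0.15 SE and -1.16 ± 0.18 SE.

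Of the 6 genes that supply thymidylate and deoxynucleotides, all were tested in both comparisons. In the Wdr5 comparison 4 were called lower and 1 higher. Dtymk, the kinase that acts on the product of Tyms, read 556.1, 440.9 and 507.1 in the knockdown and 2766.6 and 3365.5 in the luciferase control. Its log2 fold change was -2.38 ± 0.10 SE (limma adjusted p = 2.03e-05), past that of Tyms. Thymidine kinase Tk1 (-1.03 ± 0.10 SE, limma adjusted p = 0.00025) and the ribonucleotide reductase subunit Rrm1 (-1.03 ± 0.07 SE, limma adjusted p = 8.19e-05) were lower. Dut, which makes the dUMP that Tyms uses, was higher (0.66 ± 0.08 SE, limma adjusted p = 0.000737).

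With Oct4 shRNA 2 of these 6 were called lower and 1 higher. Tk1 had a log2 fold change of -1.42 ± 0.15 SE (limma adjusted p = 0.00209) and Dtymk one of -1.30 ± 0.15 SE (limma adjusted p = 0.00243). Rrm1 was higher (0.82 ± 0.19 SE, limma adjusted p = 0.0205), a call lost on scaling to a common median, with no filter on dim probes and without either Oct4 shRNA array. Dtymk and Tk1 were thus lower in both comparisons on their brightest probes, beside Tyms. The second Tk1 probe gave -0.32 ± 0.14 SE in the Wdr5 comparison and -1.17 ± 0.17 SE in the Oct4 comparison.

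Of 9 genes of serine transport and use, 7 were tested in the Wdr5 comparison, with 2 called higher and 3 lower. The neutral amino acid transporter Slc1a4, which carries serine, was lower (-0.66 ± 0.07 SE, limma adjusted p = 0.000504), as was the glycine transporter Slc6a9 (-0.56 ± 0.12 SE, limma adjusted p = 0.00678). The transporter Slc38a2 was higher (0.45 ± 0.06 SE, limma adjusted p = 0.00134), as was Sptlc2, a subunit of serine palmitoyltransferase (0.70 ± 0.19 SE, limma adjusted p = 0.018, not called without luciferase replicate 2). Against GFP shRNA 8 were tested, with 2 called, both lower. The transporter Slc1a5, 1 of the 2, was not well above background with Oct4 shRNA and at least 1.70-fold lower. Only the GFP shRNA arrays took it past the detection filter, so its direction is not a result. The mitochondrial serine transporter Sfxn1 gave -0.49 ± 0.15 SE (limma adjusted p = 0.0434), a call lost without either Oct4 shRNA array and without GFP shRNA replicate 2.

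Of 4 known regulators of serine synthesis genes, 3 were tested in the Wdr5 comparison, with 1 called higher and 1 lower. Atf4, which activates Phgdh, Psat1 and Shmt2 in other settings, was not called. Its brightest probe read 3292.5, 2968.6 and 2924.1 in the Wdr5 knockdown and 2980.2 and 3453.1 in the luciferase control, a log2 fold change of 0.09 ± 0.07 SE (limma adjusted p = 0.279). Its second probe gave -1.39 ± 0.12 SE. With Oct4 shRNA the brightest Atf4 probe gave 0.31 ± 0.18 SE and was not called (limma adjusted p = 0.218), and the second gave -0.56 ± 0.17 SE. The probes of Atf4 thus disagree in both comparisons. Atf4 is also known to be controlled at translation, which arrays do not measure. Nfe2l2, the transcription factor NRF2, was lower in the Wdr5 knockdown (-1.88 ± 0.11 SE, limma adjusted p = 5.43e-05) and was detected on 1 of 3 knockdown arrays. Myc, counted as called higher there, was at least 1.17-fold higher, with no control array above background. Only the knockdown arrays took it past the detection filter, so its direction is not a result. The other regulator tested with Oct4 shRNA, Nfe2l2, gave -0.38 ± 0.36 SE and was not called (limma adjusted p = 0.433).

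Other known targets of Atf4 were listed as a further readout, and 4 of 5 were called in the Wdr5 comparison, all lower. Asns, asparagine synthetase, read 4939.0, 4892.5 and 4547.8 in the knockdown and 11418.7 and 12617.8 in the luciferase control (log2 fold change -1.05 ± 0.07 SE, limma adjusted p = 6.61e-05), with -3.77 and -1.50 on its other probes. The pseudokinase Trib3 gave -1.28 ± 0.13 SE (limma adjusted p = 0.000328), the glutathione-degrading enzyme Chac1 -1.00 ± 0.08 SE (limma adjusted p = 0.000146) and the transcription factor Ddit3 -0.37 ± 0.08 SE (limma adjusted p = 0.00767). The mean over the Ddit3 probes was not called.

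With Oct4 shRNA 4 of these 5 were tested, with 2 called lower and 1 higher. Chac1 read 139.2 and 133.0 with Oct4 shRNA and 2031.2 and 1435.0 with GFP shRNA (log2 fold change -2.08 ± 0.14 SE, limma adjusted p = 0.000751). Trib3 was lower (-1.15 ± 0.17 SE, limma adjusted p = 0.00488, not called without Oct4 shRNA replicate 1). Ddit3 was higher after normalization (1.57 ± 0.14 SE, limma adjusted p = 0.00142), with intensities of 1030.7 and 1014.1 with Oct4 shRNA and 1203.9 and 843.6 with GFP shRNA. Asns was not called, at -0.11 on its brightest probe and -1.03 on the other.

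The fold changes of the enzymes were recomputed under each other way of processing. In the Wdr5 comparison Phgdh ranged from -2.87 to -2.23, Psat1 from -2.18 to -2.01, Shmt1 from -1.38 to -1.00 and Mthfd2 from -1.36 to -0.98 over the 12 settings, and each of these was called under all 12. Tyms stayed below 0 on every gene-level setting, from -1.12 to -0.27, the latter as a mean over its kept probes. Shmt2 was -0.84, and called, as a mean over its probes, the dimmer of which passed the filter only through the luciferase arrays. Mthfd1 was called under 0 of the 12. In the Oct4 comparison, scaling to a common median moved the median of all genes to -0.53. On that scale Mthfd2 was -1.64 and Gldc 0.07, which are -1.11 and 0.60 relative to that median. Over the 13 settings of that comparison Shmt1 ranged from -2.07 to -0.45, Tyms from -1.91 to -0.82, Mthfd1 from -1.76 to -0.48, Mthfd2 from -1.64 to -0.82, Shmt2 from -1.37 to -0.23 and Psat1 from -1.34 to -0.41. Gldc ranged from 0.07 to 0.77. Shmt1 and Tyms were called under all 13, Mthfd1 under 12, Shmt2 and Mthfd2 under 11 and Gldc under 2.

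**Figure D4:**
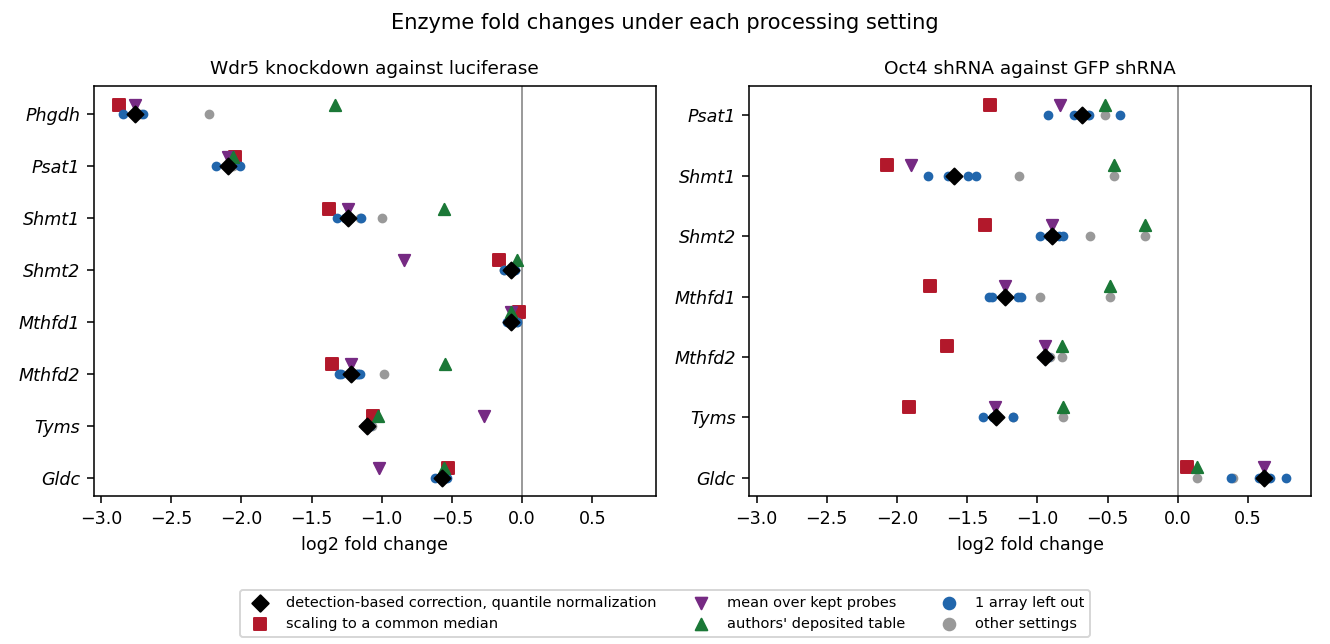
Log2 fold change of each measured enzyme under every processing setting, in the Wdr5 comparison (left) and the Oct4 comparison (right). Black diamonds are the values given in the text, red squares come from scaling to a common median, purple triangles from the mean over kept probes and green triangles from the authors' deposited table; Phgdh spans -2.87 to -2.23 over its own settings with the authors' value apart at -1.33, and in the right panel the red squares lie left of the diamonds for all 7 enzymes.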

How the data were processed

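The authors deposited probe intensity values, not normalized between arrays, and beside each a detection score, a fraction near 1 for bright probes, per the file headers and the values. They also deposited log2 values and tables of log2 fold changes with p-values, per the file headers. The submitters' processing notes name limma; what else was done is not given in these sources.

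Intensities were analysed with limma 3.58.1 under R 4.3.3. Background was corrected from the detection scores with an offset of 16, arrays were normalized by quantiles within each comparison, and log2 was taken. The offset pulls fold changes of dim probes towards 0. Probes with a score above 0.95 on at least 2 arrays were kept, 13529 and 11324 in the Wdr5 and Oct4 sets. A gene was its kept probe of highest mean. Groups were compared with lmFit and eBayes, two-sided, Benjamini-Hochberg adjusted over all genes, with a threshold of 0.05. The small number of arrays limits the precision. Symbols came from accessions matched to RefSeq, for 24202 and 25596 probes, or else from the tables. A gene below background on a whole group has only a bound: the brighter mean against the higher of its own signal and the lowest detected signal per array. Such bounds hold for this processing only.

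The enzymes, lists and alternatives were chosen with earlier results of these data known. From each list up to 4 called genes with the largest change were named, with Atf4, Tdh, Mthfd1l, Amt, Gcsh and Dld in any case; 1 further gene of that rule is not reported here. The scripts were tested on simulated data. Alternatives covered background correction, scaling, filters, probe averaging, variance trend, a replicate block, the authors' values and leaving out each array. Replicate numbers shared between groups were not treated as a pairing of the samples in the main fit. The 5 per-array columns of deposited log2 values of the Wdr5 set were not used, since their probe identifiers could not be matched.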

Additional observations from a re-analysis of the deposited data

Results flagged for a closer look

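Some genes had knockdown and control arrays that did not overlap in either comparison, with opposite directions in the 2 comparisons. The difference between the comparisons was not tested, since they used different array types and cell lines. Over all genes tested in both, 21.1% met the same condition. Among the enzymes it was met by Gldc, whose log2 fold change in the Wdr5 comparison minus that in the Oct4 comparison was -1.19.

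Of 36 list genes tested in both comparisons, 13 met it (36.1%). Of these only Slc46a1, Rrm1 and Ddit3 were called in both comparisons, so for the others the condition was met without a call in each. In the folate and methionine lists the differences, taken the same way, were -2.05 for Slc46a1, -1.03 for Aldh1l1, 1.69 for Mat2a and 1.25 for Ahcy. Aldh1l1 was above background on 0 of 2 GFP shRNA arrays and Ahcy on 0 of 2 luciferase arrays. Each passed the filter there only through the knockdown arrays, so neither the directions nor the sizes of their differences are read. In the purine and deoxynucleotide lists they were 1.45 for Atic, 1.07 for Ppat, -1.85 for Rrm1 and 1.04 for Dut. The condition was read on the brightest probe of each gene. The other probes of Atic, at -1.08 and -1.16 in the Wdr5 comparison, lay in the same direction as in the Oct4 comparison. Other probes of Mat2a and Srr also differed in sign from their brightest one, as did the other Ddit3 probe in the Wdr5 comparison, at 0.06 ± 0.12 SE. Among serine transport and use the differences were -0.96 for Slc6a9, 0.85 for Slc38a2, -0.70 for Sptlc1 and 0.63 for Srr, and among the Atf4 targets -1.94 for Ddit3. No group had 4 or more arrays, so no array was examined as an outlier within its group.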

How the results depend on the processing

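In the Wdr5 comparison the enzymes called lower stayed at 6 whichever array was left out. The genes called there ranged from 3352 to 3692 higher and from 2380 to 3001 lower when 1 array was left out. Scaling to a common median moved the share of calls that were higher to 50.7%, from the 55.6% of the quantile normalization. Other Tyms probes gave 0.74 and 0.14 in place of -1.11, and the cause was not tested.

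The Oct4 comparison depended more on the processing. Scaling to a common median gave 578 genes higher and 2765 lower in place of 2250 and 1680, so that 17.3% of calls were higher in place of 57.3%, and it left 1 list gene higher in place of 3. When 1 array was left out, 387 to 2616 genes were called higher and 418 to 1911 lower, 0 to 1 enzymes higher and 2 to 6 lower, and 1 to 6 list genes higher and 8 to 13 lower. The lowest values came without Oct4 shRNA replicate 1, where Psat1, Shmt2, Mthfd1, Mthfd2 and Gldc were not called, and without replicate 2 Psat1, Shmt2, Mthfd2 and Gldc were not. A lone array was assumed to vary like the other group. Of 210 single values of enzymes, 162 moved by less than the spread between arrays, 46 moved by more and 2 changed sign. The cause of these moves was not tested. A variance trend cannot change a fold change, nor can a replicate block in the Oct4 set, and the filters left many values identical. The 162 are therefore not a measure of stability.

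Numbers shared between groups were not treated as pairs in the main fit (correlations of deviations Wdr5 set -0.03 and -0.01, Oct4 set -0.36). With so few arrays in a group, these correlations cannot decide whether samples were paired. A replicate block left the enzyme calls as they were and gave 6432 calls in place of 6947 in the Wdr5 comparison and 3305 in place of 3930 in the Oct4 comparison. The block also ended the calls of Sptlc1, Rrm2 and Aldh1l2 in the Wdr5 comparison and of Sfxn1 in the Oct4 comparison. A crossed replicate block, added after the data were seen, gave 4719 calls in the Oct4 set, with 1 enzyme and 5 list genes higher. The authors' log2 values of the Wdr5 set and a block for slide or scan were not run, as probe identifiers could not be matched and the headers give no slide. Signal over background leaves Phgdh in the Oct4 set and Psph in both without a value, and calls of genes below background in 1 group (Gnmt, Myc, Mthfs, Slc1a5) were not tested where the array left out took them under the filter.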
